A study of Mus musculus with 26 samples.

Results

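The genes described here encode the subunits, assembly factors and activators of the proteasome in mouse brown adipose tissue, the fat depot that burns lipid to make heat. They were taken by name, as every gene whose symbol begins with Psma, Psmb, Psmc or Psmd and a digit, or is one of Psme1 to Psme4, and that reached at least 1 FPKM, a read density corrected for transcript length and for the size of the library, in at least 3 of the 26 libraries. Of 48 genes with such a symbol, 42 reached that level, among 12702 genes tested in the series. They comprise 7 genes of the alpha ring, 7 of the constitutive beta ring, the 3 immunoproteasome subunits Psmb8, Psmb9 and Psmb10, which are shown apart, 6 ATPases and 11 other subunits of the regulatory particle, 3 assembly chaperones that carry Psmd names, 4 activators, and Psmc3ip. The last of these matches by its letters alone: its protein is named for binding the product of Psmc3 and acts in meiotic recombination, not in the proteasome.

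The series measured the RNA of brown adipose tissue from mice aged 2 months. BKO mice carried floxed Klf15 alleles (K15F/F) with 1 copy of Ucp1-Cre, and FF mice carried the floxed alleles without Cre. Klf15 encodes a Krüppel-like transcription factor, and the Ucp1 promoter is active in brown adipocytes, so that other cells of the depot keep an intact gene. Each genotype was studied fasted at room temperature (3 libraries), in a cold challenge (4), in cold plus fasting (3) and fed at room temperature (3), which gives 13 libraries per genotype. The labels used here give neither the temperature, the length of cold or fasting, nor whether mice in the cold challenge without fasting had food. In these data Klf15 lay at 2.12 to 8.92 FPKM over the 13 BKO libraries and at 9.03 to 30.6 FPKM over the 13 FF libraries, without overlap. The brown fat markers Cidea (1598 to 2311 FPKM) and Cox8b (3211 to 7466 FPKM) were high in every library, whereas Ucp1 reached 8700 FPKM but was listed at exactly 0 in 8 libraries and was left out of the tests as a failed estimate. Libraries bear the numbers 1 to 8 or 15 to 32 in the labels, here called the first and second library series. All BKO and all FF cold plus fasting libraries belong to the second, all FF fasted libraries to the first, and FF cold (3 first, 1 second) and FF fed (2 first, 1 second) to both. In BKO cold plus fasting replicate 3 the members other than the immunoproteasome subunits and Psmc3ip summed to 3091 FPKM, the highest of the 26 libraries. In BKO mice the calls of cold plus fasting against fed that end without it are named.

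The proteasome degrades proteins that carry ubiquitin chains. Its barrel-shaped core has outer rings of alpha subunits and inner rings of beta subunits, of which Psmb6, Psmb7 and Psmb5 carry the caspase-like, trypsin-like and chymotrypsin-like activities, and its regulatory particle holds a ring of ATPases that unfold substrates together with subunits that bind and remove ubiquitin. Interferon induces Psmb9, Psmb10 and Psmb8, which take the places of Psmb6, Psmb7 and Psmb5 in newly built immunoproteasomes and favour peptides that fit major histocompatibility class I molecules. In brown fat the transcription factor Nfe2l1 is known to raise proteasome gene transcription in the cold, acting through antioxidant response elements.

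Upstream sequence is shown for 4 members, namely a pair of constitutive catalytic genes whose windows hold the core of the antioxidant response element, and Psmc4 and Psmb10, which differed in the cold in opposite directions. The sequences come from RefSeq on GRCm38.p6 and run 5′ to 3′ on the gene's own strand, with annotated exons removed. Capitals mark the letters TGACNNNGC, on either strand, which the windows of Psmc4 and Psmb10 lack.
Psmb5, chr14:54618023-54618245, minus strand: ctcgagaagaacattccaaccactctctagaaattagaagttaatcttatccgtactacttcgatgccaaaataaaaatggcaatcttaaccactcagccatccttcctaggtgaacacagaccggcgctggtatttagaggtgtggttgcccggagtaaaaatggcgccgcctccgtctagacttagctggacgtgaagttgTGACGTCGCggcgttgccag
Psmb6, chr11:70525107-70525356, plus strand: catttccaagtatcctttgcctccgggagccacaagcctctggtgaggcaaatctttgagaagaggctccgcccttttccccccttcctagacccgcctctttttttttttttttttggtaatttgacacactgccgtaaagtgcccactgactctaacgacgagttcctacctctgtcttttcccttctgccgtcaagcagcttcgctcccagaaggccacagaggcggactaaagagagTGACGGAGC
Psmc4, chr7:28050102-28050342, minus strand: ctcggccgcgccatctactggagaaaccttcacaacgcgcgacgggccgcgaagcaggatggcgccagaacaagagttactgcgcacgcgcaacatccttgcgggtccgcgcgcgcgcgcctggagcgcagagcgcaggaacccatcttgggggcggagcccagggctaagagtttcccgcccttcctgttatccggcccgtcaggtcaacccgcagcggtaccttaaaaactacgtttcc
Psmb10, chr8:105938445-105938642, minus strand: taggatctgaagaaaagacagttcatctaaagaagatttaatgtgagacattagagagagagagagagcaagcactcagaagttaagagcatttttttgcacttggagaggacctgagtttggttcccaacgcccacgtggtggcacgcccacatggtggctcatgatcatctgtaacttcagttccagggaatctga

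RefSeq upstream windows of 250 bases were matched for 36 of the 42 members, and both strands were searched. The letters TGACNNNGC occurred in 5 of the 36 windows (13.9%), those of Psmb5, Psmb6, Psmc6, Psmd12 and Psmd9, against 10.2% of 32851 windows in all. CCAAT occurred in 14 member windows (38.9%) and in 33.8% of all windows, and the core of the interferon-stimulated response element in 3 (8.33%) and in 2.98%. Matches may overlap one another and describe the windows only.

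The class medians of the core particle were higher than those of the regulatory particle, though single members crossed that order. The median level over the 26 libraries ran from 97.6 FPKM for Psmb4 to 158 FPKM for Psmb6 in the constitutive beta ring, with a class median of 110 FPKM, and the class median of the alpha ring was 101 FPKM, with members from 10.3 FPKM for Psma3 and 14.5 FPKM for Psma5 to 159 FPKM for Psma6. The ATPases lay between 45.4 FPKM for Psmc1 and 66.5 FPKM for Psmc4, and the other regulatory subunits between 29.5 FPKM for Psmd11, which helps hold the regulatory particle together, and 132 FPKM for Psmd8. The activators lay between 25 FPKM for Psme4 and 36.4 FPKM for Psme3, and the assembly chaperones between 6.99 FPKM for Psmd9 and 12 FPKM for Psmd10. The immunoproteasome subunits were an order of magnitude below their constitutive counterparts, at medians of 4.97 FPKM for Psmb9, 8.63 FPKM for Psmb8 and 9.60 FPKM for Psmb10.

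**Figure D1:**
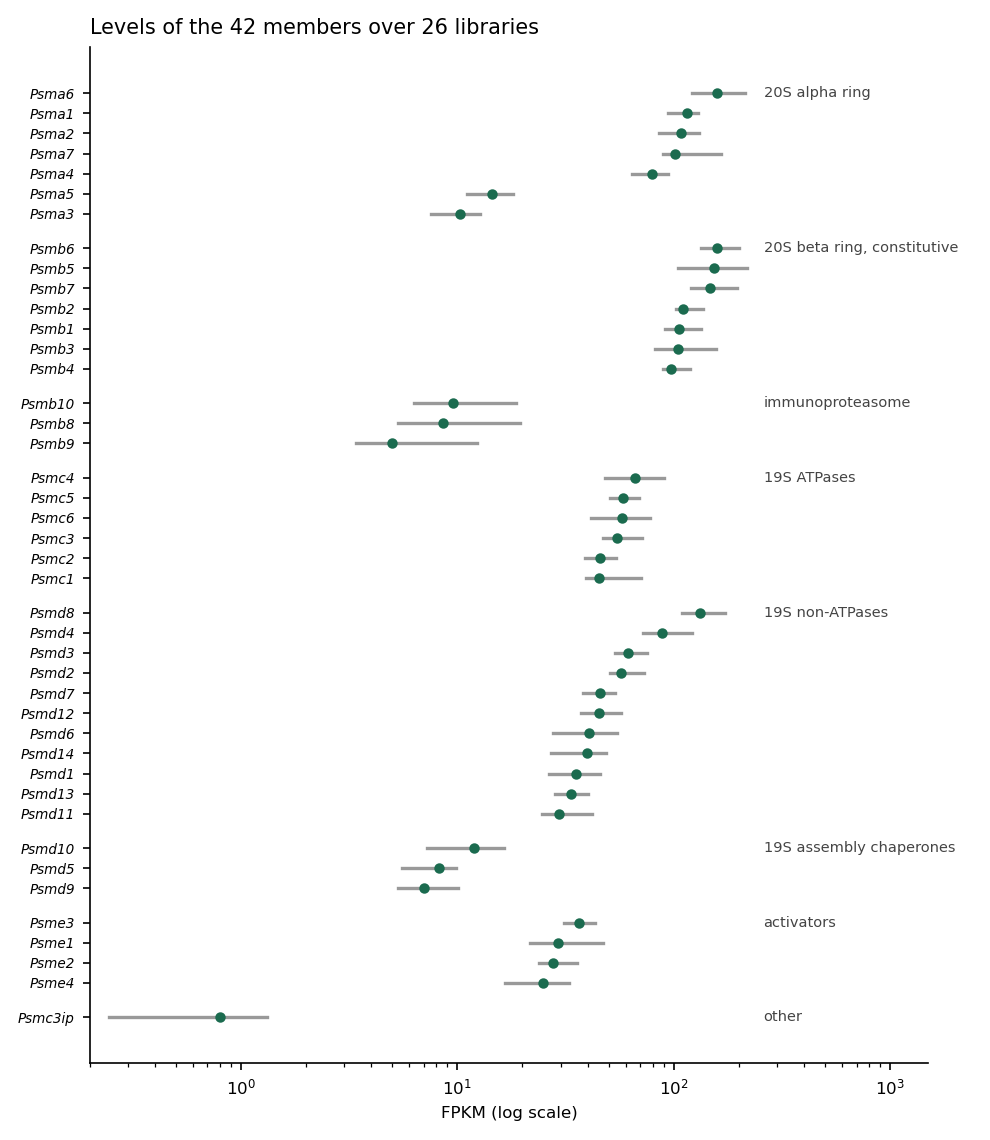
Level of each of the 42 members in FPKM on a log axis, grouped by class: points are medians and lines run from the lowest to the highest of the 26 libraries. Most core subunits sit near 100 FPKM, the immunoproteasome subunits and assembly chaperones near 10 FPKM, and Psmc3ip below 1 FPKM.

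The members also differed in how much they varied. Across all 26 libraries the coefficient of variation was 6.54% for Psmb4 and 6.95% for Psmb2, and it was largest for Psmb9 (44.0%), Psmb8 (43.7%), Psmc3ip (35.8%), Psmb10 (28.3%) and Psme1 (25.7%). Psmb9 spanned 3.41 to 12.3 FPKM and Psmb8 5.34 to 19.5 FPKM, whereas Psmb2 varied by a factor of 1.32 between its extremes. The 38 members other than the immunoproteasome subunits and Psmc3ip summed to between 2375 and 3091 FPKM per library, 0.550% to 0.662% of the FPKM of a library.

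Psmc3ip was just inside the level that defined the members, with a median of 0.801 FPKM and 6 libraries at 1 FPKM or more. The 6 genes just outside were Psmb7-ps2 (highest library 0.444 FPKM), Psmb6-ps2 (0.390), Psmb5-ps (0.293), the testis alpha subunit Psma8 (0.248), the thymus beta subunit Psmb11 (0.00992) and Psmb6-ps, which was listed at 0 throughout.

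Some levels cannot be assigned to 1 gene. A comparison of each member's longest coding transcript with the transcripts of all other genes in GENCODE M21 found a copy with at least 90% identity over at least 500 bases for 14 of the 42 members. Psma3 had a median of only 10.3 FPKM, well below Psma6 and most of the alpha ring, while its processed pseudogene Gm13835 (GRCm38 chr6:31141979-31142663), identical over 665 bases, had 181 FPKM, with a range of 157 to 216. Psma5 had 98.6% identity over 952 bases with Gm8394, which stood at 15.1 FPKM. The PA28 gene Psme2 had a median of 27.6 FPKM and its retrogene copy Psme2b, 99.4% identical over 794 bases, 69.3 FPKM, and the pseudogene Gm3375 of Psmb5 stood at 38.4 FPKM. Levels of these 4 members and of Psmb3, Psmd11, Psma4 and Psmd2, whose copies lay between 6.5 and 17.9 FPKM, are uncertain to that extent. Psmc1 and Psme1 had copies listed at medians of 1.4 and 1.36 FPKM. None of the immunoproteasome subunits and none of Psmc4, Psma6, Psma7 and Psmd4 had such a copy.

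In the cold the immunoproteasome subunits and the activator Psme1 fell, the ATPase Psmc4 rose, and the remaining proteasome genes did not pass the test. The same 5 members passed in both genotypes, 4 of them lower and 1 higher, which is 11.9% of the members. Among all 12702 genes, 16.2% passed in BKO mice (9.72% higher, 6.5% lower) and 23.6% in FF mice (13.3% higher, 10.3% lower). The gap between the members' share and these shares was not tested, and the member counts changed with the settings given below. The median log2 difference of the 42 members on the log2(FPKM + 1) scale was 0.08 in BKO and 0.01 in FF mice, against 0.01 and 0.00 over all genes tested. Tests are two-sided contrasts of group means by limma over all 26 libraries, with Benjamini-Hochberg adjustment over all genes and a threshold of 0.05.

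Psmb8, on GRCm38 chr17:34197721-34201454, had 5.68, 8.01, 6.63 and 7.83 FPKM in BKO cold libraries, against 16.3, 19.5 and 16.9 FPKM in BKO fed libraries. In FF mice it had 6.30, 6.18, 7.72 and 6.74 FPKM in cold, against 18.7, 14.3 and 12.9 FPKM in fed libraries. Every cold library was below every fed library of its genotype, and Psmb8 fell by 1.21 ± 0.14 in BKO (SE, adjusted p = 3.33e-06, limma) and by 1.07 ± 0.14 in FF mice (adjusted p = 1.05e-05, limma).

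Psmb9, its neighbour at chr17:34181987-34187764, had 3.72, 4.31, 4.16 and 5.15 FPKM in BKO cold libraries, against 9.90, 12.1 and 9.69 FPKM in BKO fed libraries. FF mice had 4.23, 3.41, 4.24 and 3.85 FPKM in cold, against 12.3, 9.82 and 6.58 FPKM when fed. The groups again did not overlap, the lowest fed library being FF replicate 3, and Psmb9 fell by 1.12 ± 0.14 in BKO (adjusted p = 9.08e-06, limma) and by 1.07 ± 0.14 in FF mice (adjusted p = 1.08e-05, limma).

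Psmb10, at chr8:105935735-105938444, had 9.45, 11.6, 10.6 and 10.1 FPKM in BKO cold libraries, against 12.3, 16 and 18.7 FPKM in BKO fed libraries. In FF mice the values were 10.3, 8.60, 9.14 and 9.08 FPKM in cold, against 15.6, 14.3 and 14.6 FPKM when fed. It fell by 0.53 ± 0.11 in BKO (adjusted p = 0.00156, limma) and by 0.63 ± 0.11 in FF mice (adjusted p = 0.000224, limma), a smaller difference than those of Psmb8 and Psmb9, though that gap itself was not tested. The upstream window of Psmb10 printed above held none of these motifs.

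**Figure D2:**
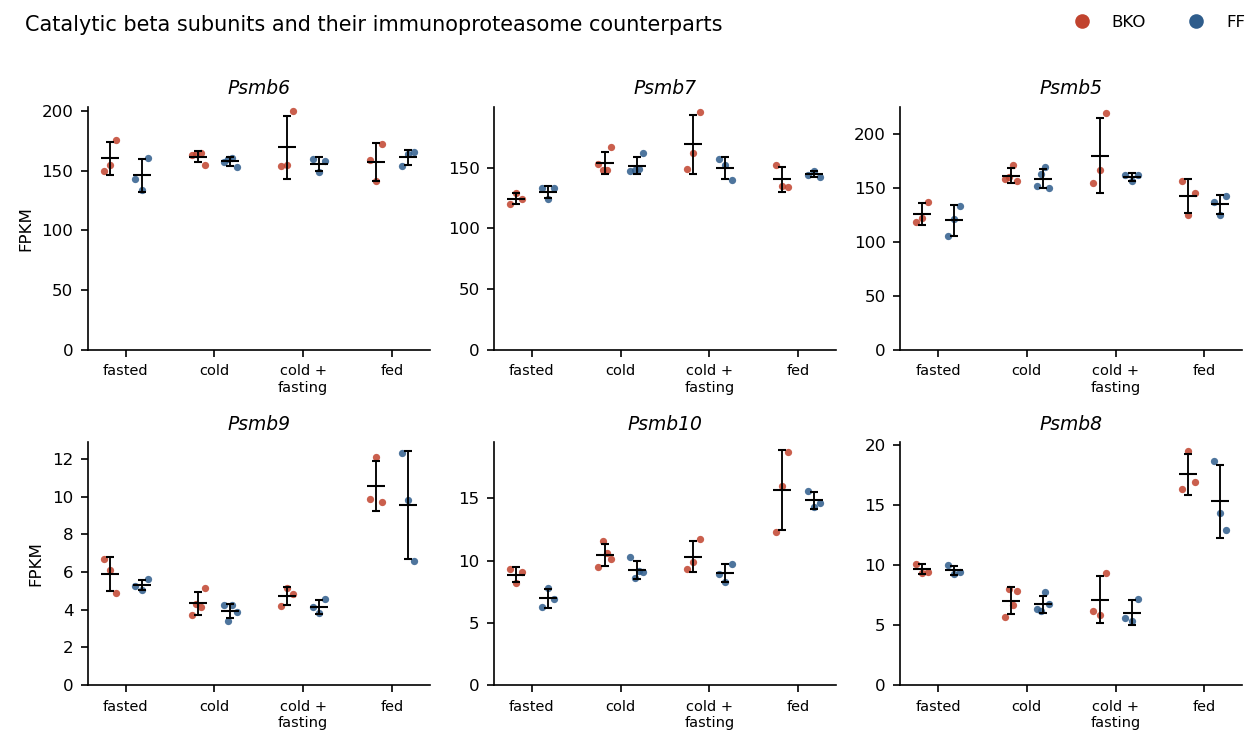
FPKM of the constitutive catalytic subunits (top) and of the immunoproteasome subunits that replace them (bottom) in every library, BKO in red and FF in blue, with the group mean and SD as bars. The immunoproteasome subunits are lower in the fasted, cold and cold plus fasting groups than in fed mice of both genotypes, while Psmb6 stays between 134 and 200 FPKM throughout.

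Psme1 encodes the alpha subunit of the PA28 activator, a ring that caps the core particle and is induced by interferon along with the immunoproteasome. It had 26, 28.9, 23.1 and 25 FPKM in BKO cold libraries, against 39.9, 42.7 and 46.9 FPKM in BKO fed libraries. FF mice had 23.9, 25.5, 22 and 23.2 FPKM in cold, against 41.9, 40.2 and 40.7 FPKM when fed. All cold libraries were below all fed ones, and Psme1 fell by 0.73 ± 0.11 in BKO (adjusted p = 0.000126, limma) and by 0.77 ± 0.11 in FF mice (adjusted p = 4.34e-05, limma).

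The other activators did not pass. Psme2, which encodes the beta subunit of PA28, differed by -0.24 ± 0.11 in BKO and by -0.23 ± 0.11 in FF mice (adjusted p = 0.144 and 0.12, limma), while its near-identical copy Psme2b fell by 0.33 ± 0.09 in BKO (adjusted p = 0.0116, limma) and by 0.28 ± 0.09 in FF mice (adjusted p = 0.022, limma), and the deposited values cannot show how reads were split between them. Psme3, the nuclear PA28 form, differed by 0.09 ± 0.07 in BKO and 0.16 ± 0.07 in FF mice, and Psme4, the activator PA200, by 0.25 ± 0.14 and 0.13 ± 0.14.

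**Figure D3:**
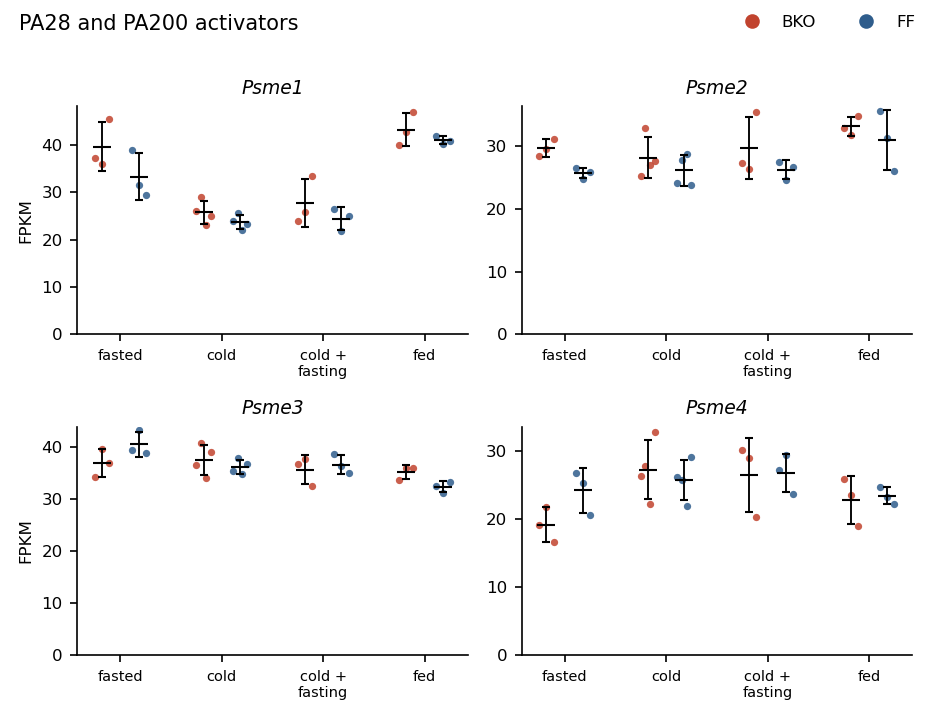
FPKM of the 4 activator genes in every library, BKO in red and FF in blue, with group mean and SD as bars. Psme1 is lower in cold and cold plus fasting than in fed mice in both genotypes, without overlap.

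Psmc4 encodes an ATPase of the ring that unfolds substrates, at chr7:28041707-28050101. It had 78.7, 84.4, 76.2 and 82.6 FPKM in BKO cold libraries, against 57.5, 53.1 and 57.0 FPKM in BKO fed libraries, and in FF mice 74.4, 74.0, 67.7 and 75.7 FPKM in cold, against 54.0, 50.0 and 63.9 FPKM when fed. No cold library overlapped the fed ones, and Psmc4 rose by 0.52 ± 0.09 in BKO (adjusted p = 0.000372, limma) and by 0.38 ± 0.09 in FF mice (adjusted p = 0.00388, limma). The other 5 ATPases differed by between 0.06 and 0.22 in BKO mice and between -0.14 and 0.12 in FF mice, and none passed.

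The constitutive catalytic subunits did not pass in the cold. Psmb5 had 158, 160, 171 and 156 FPKM in BKO cold libraries, against 156, 125 and 145 FPKM in BKO fed libraries, and 152, 163, 169 and 150 FPKM in FF cold, against 137, 125 and 142 FPKM in FF fed libraries. The differences of 0.19 ± 0.10 in BKO and 0.24 ± 0.10 in FF mice did not pass (adjusted p = 0.225 and 0.0939, limma), and those of Psmb6 and Psmb7 lay between -0.03 and 0.13. In the alpha ring the differences ran from -0.08 for Psma1 to 0.19 for Psma6 in BKO mice and from -0.24 for Psma5 to 0.05 for Psma6 in FF mice. Among the other regulatory subunits they ran from -0.16 for Psmd1 to 0.28 for Psmd12 in BKO mice and from -0.29 for Psmd1 to 0.19 for Psmd7 in FF mice. The assembly chaperones differed by 0.08 to 0.25 in BKO and by 0.10 to 0.18 in FF mice.

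The number of members past the threshold in FF mice depended on scaling and on single libraries. After quantile normalization 11 passed, 1 higher and 10 lower, in place of 1 and 4, and without FF fed replicate 3, or without BKO cold plus fasting replicate 3, which enters through the shared spread, 8 passed. In BKO mice 9 passed, 5 higher and 4 lower, without BKO cold replicate 3. With libraries weighted by their quality, 16 passed in BKO mice, 12 higher and 4 lower, and 21 in FF mice, 10 higher and 11 lower. The shares of all genes under these other settings are not given here. The calls of the 5 named members in BKO mice held without any single library and under all 7 other settings run, including libraries of the second series alone. In FF mice they held without any single library too, but with the second series alone, which leaves 1 FF cold and 1 FF fed library, none passed: Psmb8 differed by -0.93 (adjusted p = 0.137, limma) and Psmc4 by 0.22 (adjusted p = 0.68, limma).

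Genes of class I peptide presentation and of the interferon response were lower beside the immunoproteasome subunits. Of 14 tested, 10 fell in BKO and 9 in FF mice in the cold and 0 rose, where 6.5% and 10.3% of all genes fell. The list medians were -0.56 and -0.51 against 0.01 and 0.00 for all genes. Tap1, a subunit of the peptide transporter, averaged 4.34 ± 0.33 FPKM in BKO cold and 7.92 ± 1.32 FPKM in BKO fed libraries (SD, n = 4 and 3), and 4.04 ± 0.612 FPKM in FF cold and 8.26 ± 0.641 FPKM in FF fed libraries (SD, n = 4 and 3). It fell by 0.73 ± 0.11 in BKO and by 0.88 ± 0.11 in FF mice (adjusted p = 6.05e-05 and 3.57e-06, limma). B2m, the light chain of class I molecules, fell by 0.85 ± 0.16 and 0.87 ± 0.16 (adjusted p = 0.000732 and 0.000416, limma).

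Immune cells express immunoproteasome genes strongly, and their markers are given beside these results. The sum of 11 macrophage markers ranged from 76.5 to 112 FPKM in BKO cold and from 111 to 153 FPKM in BKO fed libraries, and from 85.6 to 96.7 FPKM in FF cold and from 104 to 121 FPKM in FF fed libraries. Of the 10 tested, 3 fell in BKO and 4 in FF mice, where 6.5% and 10.3% of all genes fell. Their medians were -0.38 and -0.33, and none of the 11 was at 0 in any library. The lymphocyte markers without Ighm summed to 2.73 to 4.08 FPKM in BKO cold and 3.69 to 8.62 FPKM in BKO fed libraries, and to 3.08 to 3.51 FPKM in FF cold and 4.42 to 4.50 FPKM in FF fed libraries. The T and B cell markers Cd3d, Cd3e, Cd3g, Cd4, Cd8a, Cd8b1, Cd79a, Cd79b and Ms4a1 reached at most 0.726 FPKM in any library, with Cd3e listed at 0 in 4 and Cd8b1 in 3. Other markers of the list were higher, Ptprc at up to 1.94 FPKM and Nkg7 at up to 2.28 FPKM. The B cell gene Ighm, left out of these sums, ranged from 2.26 to 42.6 FPKM over all libraries. The part of these cells in the fall of the immunoproteasome genes was not tested, and in whole tissue fewer cells of a type and less RNA per cell cannot be told apart. Erythroid markers rose in the cold as well, 4 of 5 in BKO and 5 of 5 in FF mice, where 9.72% and 13.3% of all genes rose. They summed to 415 to 701 FPKM in BKO cold, against 174 to 471 FPKM in BKO fed libraries. In FF mice they summed to 342 to 601 FPKM in cold, against 120 to 188 FPKM in fed libraries. Their part in the rise of Psmc4 was not tested.

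Fasting at room temperature moved proteasome genes in both directions. In BKO mice 5 members rose and 7 fell, 28.6% of the 42, where 27.4% of all genes passed, 12.9% higher and 14.6% lower. In FF mice 10 rose and 8 fell, 42.9%, where 37.5% of all genes passed, 18.1% higher and 19.4% lower. Of these calls 11 were shared by the genotypes in the same direction, which is 91.7% of those in BKO and 61.1% of those in FF mice, 5 higher and 6 lower, and 0 were opposite. The member medians were -0.03 in BKO and -0.01 in FF mice, against -0.01 and 0.00 over all genes. Without FF fed replicate 1, 11 members passed in FF mice, and without FF fasted replicate 3, 10 passed. All FF fasted libraries are of the first library series. With the series as a covariate 17 members passed in FF and 12 in BKO mice.

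The immunoproteasome subunits fell in both genotypes. Psmb10 had 9.36, 8.18 and 9.06 FPKM in BKO fasted libraries and 6.28, 7.79 and 6.89 FPKM in FF fasted libraries, below the lowest fed library of either genotype at 12.3 FPKM. It fell by 0.74 ± 0.12 in BKO (adjusted p = 4.93e-05, limma) and by 0.99 ± 0.12 in FF mice (adjusted p = 8.65e-07, limma). Psmb8 had 10.1, 9.35 and 9.45 FPKM in BKO fasted and 10, 9.25 and 9.41 FPKM in FF fasted libraries, a narrow range over the 6 libraries, and fell by 0.80 ± 0.15 and 0.61 ± 0.15 (adjusted p = 0.000323 and 0.00249, limma). Psmb9 had 6.69, 6.10 and 4.88 FPKM in BKO fasted and 5.27, 5.05 and 5.62 FPKM in FF fasted libraries, and fell by 0.75 ± 0.15 and 0.71 ± 0.15 (adjusted p = 0.000644 and 0.000726, limma). These 6 calls held without any single library and under every other setting run for them. Psme1, which fell in the cold, differed by -0.13 ± 0.12 in BKO and -0.30 ± 0.12 in FF mice when fasted and did not pass (adjusted p = 0.457 and 0.0546, limma).

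Within the core particle Psma7 and Psma6 rose, the other alpha subunits did not pass, and no constitutive beta subunit rose. Psma7 had 141, 135 and 140 FPKM in BKO fasted libraries, against 102, 90.1 and 94.2 FPKM in BKO fed libraries, and 138, 137 and 166 FPKM in FF fasted, against 108, 114 and 98.1 FPKM in FF fed libraries. The groups did not overlap, and Psma7 rose by 0.54 ± 0.10 in BKO (adjusted p = 0.00028, limma) and by 0.46 ± 0.10 in FF mice (adjusted p = 0.000889, limma). Psma6 rose by 0.36 ± 0.12 and 0.46 ± 0.12 (adjusted p = 0.0332 and 0.00524, limma), though its call in BKO mice ended without BKO fed replicate 2 or 3 or BKO fasted replicate 1 or 2 (adjusted p of up to 0.146, limma). Psmb3 fell by 0.30 ± 0.11 in FF mice (adjusted p = 0.0364, limma), a call lost without any 1 of 5 libraries. In BKO mice it differed by -0.23 ± 0.11 (adjusted p = 0.129, limma). Psmb5, Psmb6 and Psmb7 differed by between -0.17 and 0.03 and did not pass.

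In the ATPase ring Psmc1 rose, and it had not passed in the cold. It had 61.3, 61.0 and 55.6 FPKM in BKO fasted libraries, against 42.8, 39.3 and 43.6 FPKM in BKO fed libraries, and 61.8, 64.3 and 70.7 FPKM in FF fasted, against 47.8, 48.5 and 46.6 FPKM in FF fed libraries. Every fasted library was above every fed one, with differences of 0.49 ± 0.09 in BKO (adjusted p = 0.000332, limma) and 0.45 ± 0.09 in FF mice (adjusted p = 0.000507, limma). Psmc4, which rose in the cold, differed by -0.13 ± 0.10 in BKO and -0.03 ± 0.10 in FF mice when fasted. Psmc6 rose by 0.39 ± 0.15 in FF mice (adjusted p = 0.0411, limma), a call that ended without any 1 of 5 libraries. In BKO mice it differed by 0.16 ± 0.15.

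Among the other regulatory subunits, Psmd4 and Psmd11 rose and Psmd1 and Psmd14 fell in both genotypes. Psmd4, a receptor for ubiquitin chains, had 106, 109 and 114 FPKM in BKO fasted libraries, against 79.5, 72.2 and 78.9 FPKM in BKO fed libraries, and 95.5, 104 and 121 FPKM in FF fasted, against 79.0, 84.5 and 74.4 FPKM in FF fed libraries. It rose by 0.51 ± 0.10 in BKO (adjusted p = 0.000858, limma) and by 0.42 ± 0.10 in FF mice (adjusted p = 0.00297, limma), with no overlap. Psmd11 rose by 0.32 ± 0.09 and 0.29 ± 0.09 (adjusted p = 0.011 and 0.0143, limma), and its pseudogene Gm14048 also rose in FF mice, by 0.39 ± 0.12 (adjusted p = 0.0166, limma). The Psmd11 calls ended without BKO fasted replicate 2 (adjusted p = 0.0587) in BKO mice and without FF fed replicate 3 or FF fasted replicate 3 in FF mice. Psmd14, the enzyme that removes ubiquitin from substrates, fell by 0.39 ± 0.12 in BKO and 0.33 ± 0.12 in FF mice (adjusted p = 0.0206 and 0.0363, limma), and Psmd1, a large scaffold subunit, by 0.36 ± 0.12 in each (adjusted p = 0.0269 and 0.0198, limma). Both of these calls depended on single libraries: without BKO fed replicate 1 the adjusted p was 0.15 for Psmd14 and 0.166 for Psmd1, and without FF fasted replicate 3 it was 0.214 and 0.142. Psmd2, Psmd7 and Psmd8 rose in FF mice, by 0.23 to 0.28, and each call ended without FF fasted replicate 3 among other libraries. In BKO mice these 3 differed by 0.03 to 0.22 and did not pass.

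Of the assembly chaperones, which join the ATPases into the base of the regulatory particle, Psmd10 fell. It had 8.05, 9.07 and 8.61 FPKM in BKO fasted libraries, against 12.6, 12.1 and 10.4 FPKM in BKO fed libraries, and 9.25, 8.66 and 7.28 FPKM in FF fasted, against 11.6, 11.8 and 10.7 FPKM in FF fed libraries. The difference was -0.40 ± 0.10 in each genotype (adjusted p = 0.00314 in BKO and 0.00221 in FF mice, limma), and both calls held without any single library. Psmd9 fell by 0.24 ± 0.08 in BKO mice (adjusted p = 0.0357, limma), a call lost without any 1 of 4 libraries of that comparison, and differed by 0.06 ± 0.08 in FF mice. Psme3 rose by 0.31 ± 0.08 in FF mice (adjusted p = 0.00266, limma), at 39.4, 43.2 and 38.7 FPKM in fasted, against 32.5, 31.1 and 33.2 FPKM in fed libraries, and differed by 0.07 ± 0.08 in BKO mice (adjusted p = 0.543, limma). The difference between these responses, -0.25 ± 0.11 as BKO minus FF, did not pass (adjusted p = 0.357, limma). Psmc3ip fell by 0.41 ± 0.14 in FF mice (adjusted p = 0.0258, limma) at levels below 1 FPKM, and the call ended without FF fed replicate 1 or 2 or FF fasted replicate 1 or 3.

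**Figure D4:**
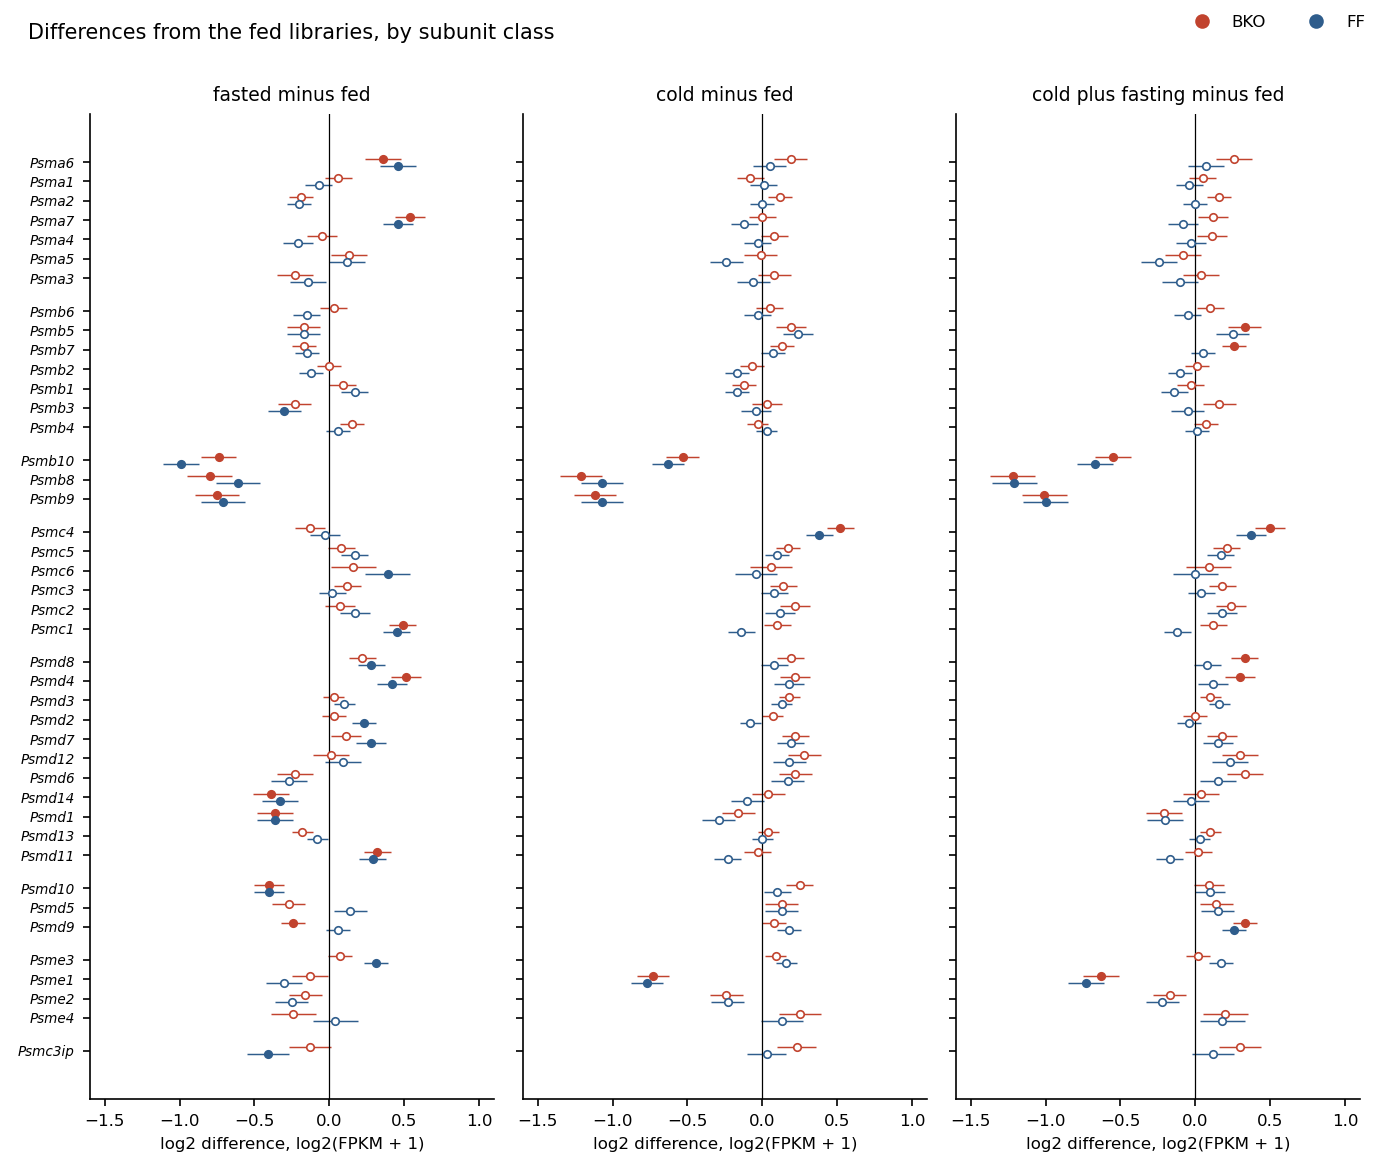
Difference of each member from the fed libraries of the same genotype on the log2(FPKM + 1) scale for fasted, cold and cold plus fasting mice, BKO in red above FF in blue; bars are standard errors and filled points passed at an adjusted p under 0.05. The immunoproteasome subunits lie left of 0 in all 3 panels, Psme1 and Psmc4 stand out to the left and right in both cold panels, and the fasted panel has filled points on both sides among core and regulatory subunits.

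Class I and interferon genes fell in fasting as well, 8 of 14 tested in each genotype with 0 higher. Of all genes, 14.6% fell in BKO and 19.4% in FF mice. The list medians were -0.43 in BKO and -0.35 in FF mice. Tap2, the other subunit of the peptide transporter, fell by 0.68 ± 0.11 in BKO and by 0.78 ± 0.11 in FF mice (adjusted p = 4.79e-05 and 6.22e-06, limma). Of the 10 macrophage markers 4 fell in BKO and 0 passed in FF mice, with medians of -0.30 and -0.11. Their sum was 89.3 to 103 FPKM in BKO fasted and 111 to 153 FPKM in BKO fed libraries, and 108 to 128 FPKM in FF fasted and 104 to 121 FPKM in FF fed libraries. Lymphocyte markers without Ighm summed to 3.63 to 4.60 FPKM in BKO fasted and 3.69 to 8.62 FPKM in BKO fed libraries, and to 2.88 to 3.59 FPKM in FF fasted and 4.42 to 4.50 FPKM in FF fed libraries, and their part was not tested.

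Cold plus fasting was compared with the same fed libraries, and the immunoproteasome subunits, Psme1 and Psmc4 were again among the calls. In BKO mice 6 members rose and 4 fell, 23.8% of the members, where 19% of all genes passed, 10% higher and 8.93% lower. In FF mice 2 rose and 4 fell, 14.3%, where 20.5% of all genes passed, 11.5% higher and 8.93% lower. All 6 members called in FF mice were also called in BKO mice in the same direction. The member medians were 0.11 in BKO and 0.00 in FF mice, with 0.00 over all genes in each. The 4 that fell were Psmb8, Psmb9, Psmb10 and Psme1, and Psmc4 and Psmd9 rose in both genotypes. The BKO count rested on 1 library: without BKO cold plus fasting replicate 3 it was 5, 1 higher and 4 lower, and without BKO fed replicate 2 it was 6. After quantile normalization 2 rose and 4 fell in BKO mice, and 2 rose and 7 fell in FF mice.

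Psmb8 had 6.14, 5.83 and 9.34 FPKM in BKO and 5.55, 5.34 and 7.20 FPKM in FF cold plus fasting libraries, below all fed libraries, the lowest of which was 12.9 FPKM. It fell by 1.22 ± 0.15 in BKO and 1.21 ± 0.15 in FF mice (adjusted p = 8.43e-06 and 7.2e-06, limma). Psmb9 fell by 1.01 ± 0.15 and 1.00 ± 0.15 (adjusted p = 8.27e-05 and 6.68e-05, limma), Psmb10 by 0.55 ± 0.12 and 0.67 ± 0.12 (adjusted p = 0.00235 and 0.000297, limma), and Psme1 by 0.63 ± 0.12 and 0.73 ± 0.12 (adjusted p = 0.00103 and 0.000209, limma). All 8 of these calls held without any single library. In FF mice those of Psmb9, Psmb10 and Psme1 did not pass with the second library series alone, with adjusted p of 0.115, 0.0733 and 0.051, where 1 FF fed library remains. Macrophage markers summed to 93.7 to 110 FPKM in BKO cold plus fasting and 111 to 153 FPKM in BKO fed libraries. In FF mice they summed to 83.4 to 107 FPKM in cold plus fasting and 104 to 121 FPKM in fed libraries. Of 10 tested, 1 fell in each genotype, beside 8.93% of all genes in each. Lymphocyte markers without Ighm summed to 2.26 to 2.94 FPKM in BKO cold plus fasting and 3.69 to 8.62 FPKM in BKO fed libraries, and to 1.59 to 3.23 FPKM in FF cold plus fasting and 4.42 to 4.50 FPKM in FF fed libraries. Erythroid markers rose, 4 of 5 in BKO and 5 of 5 in FF mice, where 10% and 11.5% of all genes rose. They summed to 427 to 996 FPKM in BKO cold plus fasting, against 174 to 471 FPKM in BKO fed libraries. In FF mice they summed to 450 to 547 FPKM in cold plus fasting, against 120 to 188 FPKM in fed libraries. The part of these cells in the calls was not tested.

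Psmc4 had 73.9, 74.8 and 90 FPKM in BKO and 74.4, 65.3 and 77.2 FPKM in FF cold plus fasting libraries, against 57.5, 53.1 and 57.0 FPKM in BKO fed and 54.0, 50.0 and 63.9 FPKM in FF fed libraries. It rose by 0.50 ± 0.10 in BKO and 0.37 ± 0.10 in FF mice (adjusted p = 0.00116 and 0.0093, limma). The FF call ended without FF fed replicate 2 (adjusted p = 0.0707) and with the library series as a covariate (adjusted p = 0.183). Psmd9, a chaperone of the ATPase ring, had 8.13, 8.10 and 10.1 FPKM in BKO and 8.37, 7.74 and 7.83 FPKM in FF cold plus fasting libraries, against 6.38, 6.81 and 7.14 FPKM in BKO fed and 6.26, 6.55 and 6.70 FPKM in FF fed libraries. No library overlapped, and it rose by 0.33 ± 0.08 and 0.26 ± 0.08 (adjusted p = 0.00871 and 0.0292, limma), but the BKO call ended without BKO cold plus fasting replicate 3 (adjusted p = 0.0677) and the FF call without any 1 of 4 libraries.

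The other 4 rises in BKO mice were those of Psmd8, Psmb7, Psmb5 and Psmd4, at 0.26 to 0.33. Psmb5 had 154, 166 and 219 FPKM in BKO cold plus fasting libraries, against 156, 125 and 145 FPKM in BKO fed libraries, and the groups overlapped. All 4 calls ended without BKO cold plus fasting replicate 3, with adjusted p of 0.274 for Psmb5, 0.234 for Psmb7 and 0.113 for Psmd8, and after quantile normalization. The constitutive catalytic sum of Psmb5, Psmb6 and Psmb7 was 615 FPKM in that library, against 457 and 484 FPKM in the other BKO cold plus fasting libraries and 401 to 468 FPKM in BKO fed libraries.

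The make-up of the catalytic subunits is described by the share of Psmb8, Psmb9 and Psmb10 in the FPKM of the 6 catalytic genes. It was 5.63% ± 0.63 in BKO fasted, 4.37% ± 0.439 in BKO cold and 4.10% ± 0.0551 in BKO cold plus fasting libraries, against 9.12% ± 1.49 in BKO fed libraries (SD, n = 3, 4, 3 and 3). In FF mice it was 5.25% ± 0.323 in fasted, 4.08% ± 0.280 in cold and 3.96% ± 0.443 in cold plus fasting libraries, against 8.29% ± 1.33 in FF fed libraries (SD, n = 3, 4, 3 and 3). The fed libraries lay at 7.06% to 10.6% and all others at 3.67% to 6.31%. By site, the share of Psmb8 in Psmb8 plus Psmb5 was 4.18% in BKO cold and 11.2% in BKO fed libraries, that of Psmb9 in Psmb9 plus Psmb6 was 2.62% and 6.36%, and that of Psmb10 in Psmb10 plus Psmb7 was 6.38% and 10.1%. These shares are of RNA, follow from the levels above and were not tested.

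**Figure D5:**
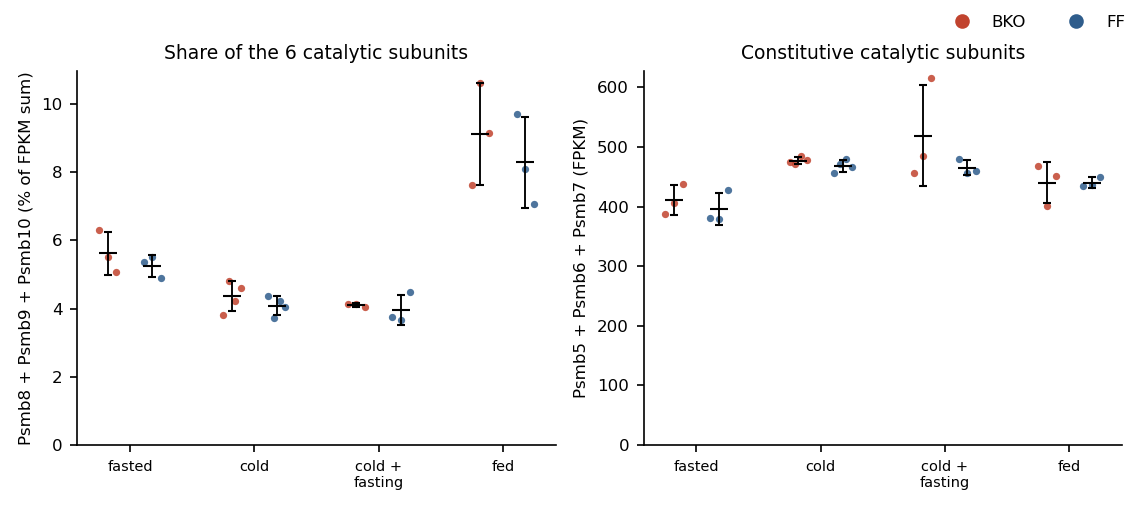
Left, share of Psmb8, Psmb9 and Psmb10 in the summed FPKM of the 6 catalytic subunits, in percent, and right, the summed FPKM of Psmb5, Psmb6 and Psmb7, for every library, BKO in red and FF in blue, with group mean and SD as bars. The fed libraries hold the highest shares, at 7.06% to 10.6%, and BKO cold plus fasting replicate 3 has the highest constitutive sum, 615 FPKM.

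Cold in fasted mice was read by comparing cold plus fasting with fasted libraries. This comparison shares the fasted libraries with the fasting comparison and the cold plus fasting libraries with the comparison above, so its values are not independent of theirs. In BKO mice 13 members rose and 5 fell, 42.9%, where 45.1% of all genes passed, 22.9% higher and 22.2% lower. In FF mice 9 rose and 11 fell, 47.6%, where 52% of all genes passed, 26% higher and 25.9% lower. The member medians were 0.09 in BKO and 0.03 in FF mice, against -0.01 over all genes in each. The direction of the FF calls depended on scaling, with 7 higher and 15 lower after quantile normalization, and in BKO mice 12 rose and 11 fell. FF fasted and FF cold plus fasting libraries lie in different library series, and with the series as a covariate 5 members passed in FF mice.

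Psmc1 and Psma7, which had risen in fasting, were lower in cold plus fasting than in fasted mice of both genotypes. Of the others that rose in fasting in both, Psmd11 was also called lower in both, by 0.30 ± 0.09 in BKO mice (adjusted p = 0.0105, limma). In FF mice Psmd11 had 32, 28.4 and 26.8 FPKM in cold plus fasting, against 39.3, 39.6 and 42 FPKM in fasted libraries. Psma6 and Psmd4 differed by -0.10 ± 0.12 and -0.21 ± 0.10 in BKO mice and did not pass there. Their FF libraries did not overlap. Psma6 had 156, 162 and 140 FPKM in FF cold plus fasting, against 213, 192 and 196 FPKM in FF fasted libraries. Psmd4 had 93.7, 82.5 and 82.1 FPKM, against 95.5, 104 and 121 FPKM. Psmc1 had 44.8, 41.7 and 51.1 FPKM in BKO cold plus fasting, against 61.3, 61.0 and 55.6 FPKM in BKO fasted libraries, and 45.2, 42.9 and 43.5 FPKM in FF cold plus fasting, against 61.8, 64.3 and 70.7 FPKM in FF fasted libraries. It fell by 0.37 ± 0.09 in BKO and 0.57 ± 0.09 in FF mice (adjusted p = 0.00249 and 2.34e-05, limma), and Psma7 fell by 0.42 ± 0.10 and 0.54 ± 0.10 (adjusted p = 0.00153 and 0.000109, limma). Psmd10, which had fallen in fasting, was higher at 12.1, 12.1 and 13.3 FPKM in BKO and 11.9, 12.7 and 12.2 FPKM in FF cold plus fasting libraries, and rose by 0.49 ± 0.10 and 0.50 ± 0.10 (adjusted p = 0.000265 and 0.000166, limma). Psmb5 rose by 0.49 ± 0.11 in BKO and 0.42 ± 0.11 in FF mice (adjusted p = 0.000806 and 0.0025, limma), and the FF value had an adjusted p of 0.0567 when the library series was a covariate.

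Of the immunoproteasome subunits, Psmb8 was lower in cold plus fasting than in fasted mice, by 0.42 ± 0.15 in BKO and 0.60 ± 0.15 in FF mice (adjusted p = 0.0257 and 0.00193, limma), although the BKO call ended without BKO cold plus fasting replicate 1 or 2 or BKO fasted replicate 1, and the FF call with the series as a covariate (adjusted p = 0.168). Psmb10 was 0.32 ± 0.12 higher in FF mice (adjusted p = 0.0223, limma), at 8.94, 8.27 and 9.75 FPKM in cold plus fasting and 6.28, 7.79 and 6.89 FPKM in fasted libraries, a call that ended without FF cold plus fasting replicate 3 or FF fasted replicate 1 or 3. In BKO mice it differed by 0.19 ± 0.12 (adjusted p = 0.175, limma). Psmb9 differed by -0.26 ± 0.15 in BKO and -0.29 ± 0.15 in FF mice and did not pass (adjusted p = 0.16 and 0.103, limma). The subunits were not tested against one another. Psme1 fell by 0.50 ± 0.12 in BKO and 0.43 ± 0.12 in FF mice (adjusted p = 0.00186 and 0.00538, limma).

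Fasting added to cold gave no call among the members, when cold plus fasting was set against cold in either genotype. Over all genes 0.00787% passed in BKO mice and 0% in FF mice. At an unadjusted p under 0.05 there was 1 member in BKO and 0 in FF mice, and 1109 and 376 of all genes. The member differences ran from -0.16 for Psmd10 to 0.24 for Psmd9 in BKO mice and from -0.14 for Psmb8 to 0.09 for Psmd1 in FF mice.

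Few members passed between BKO and FF mice, and at most 8.68% of all genes did, so these counts do not set the members apart. Comparing BKO with FF mice in the same condition, 0 of 42 passed when fed, where 0.22% of all genes passed, 0 in cold (0.402%), 0 in cold plus fasting (0.236%) and 0 on the average of the 4 conditions (2.97%). In fasted mice 0 rose and 2 fell, 4.76% of the members, where 8.68% of all genes passed, 4.53% higher and 4.15% lower. At an unadjusted p under 0.05 there were 1, 1, 0, 4 and 6 members in the fed, cold, cold plus fasting, average and fasted comparisons. Shares of all genes at that unadjusted threshold are not given here, so these counts are not read as a result about the members. The member medians were -0.02 in fed, -0.06 in fasted, 0.05 in cold and 0.08 in cold plus fasting mice.

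The 2 members were Psmd2, a scaffold subunit that binds ubiquitin-like proteins, and the chaperone Psmd5. Psmd2 had 56.4, 59.9 and 56.4 FPKM in BKO fasted libraries, against 64.0, 70.1 and 73.0 FPKM in FF fasted libraries, and fell by 0.26 ± 0.08 (adjusted p = 0.0349, limma). Psmd5 had 6.46, 6.99 and 5.53 FPKM in BKO fasted, against 7.67, 8.63 and 9.23 FPKM in FF fasted libraries, and fell by 0.38 ± 0.11 (adjusted p = 0.0378, limma). The groups did not overlap for either gene. The count was 0 without FF fasted replicate 2 or 3, or without BKO fasted replicate 1 or 3. These BKO libraries are of the second library series and the FF ones of the first, so genotype and series cannot be told apart within the comparison, and with the series as a covariate neither passed (adjusted p = 0.328 and 0.397). Skeletal muscle markers summed to 44.4 to 158 FPKM in BKO fasted and 17.7 to 77.4 FPKM in FF fasted libraries, and their part was not tested.

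The average over conditions gives the tightest intervals for BKO against FF, in the fit without the library series. All BKO libraries are of the second series and all FF fasted libraries of the first. These intervals therefore cover genotype and series together. With the series as a covariate 0 members passed on the average. The 95% intervals of all 42 members lay between -0.24, the lower bound of Psme4, and 0.29, the upper bound of Psmb10. The smallest adjusted p was that of Psmb10, with a difference of 0.17 ± 0.06 (adjusted p = 0.0922, limma). Its BKO mean exceeded its FF mean in every condition. BKO mice averaged 15.7 FPKM and FF mice 14.8 FPKM when fed, BKO 8.87 and FF 6.99 FPKM when fasted, BKO 10.4 and FF 9.28 FPKM in cold, and BKO 10.3 and FF 8.99 FPKM in cold plus fasting. Without BKO fed replicate 1, 1 member passed, and after quantile normalization 1 member passed, lower. In single conditions the intervals were wider, from -0.42 to 0.50 in fed, -0.64 to 0.55 in fasted, -0.22 to 0.38 in cold and -0.35 to 0.50 in cold plus fasting mice.

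The responses themselves did not differ between genotypes past the threshold for any member. Of all genes, 0.716% passed for the difference of the fasting responses and 0.00787% each for those of cold and of cold plus fasting. For fasting the largest member difference was that of Psmd5, -0.41 ± 0.16 as BKO minus FF (adjusted p = 0.276, limma), and 3 members had an unadjusted p under 0.05. For cold and cold plus fasting it was 0.24 for Psmc1 and 0.25 for Psmd8, and 0 members had an unadjusted p under 0.05. These unadjusted counts too stand without the shares of all genes and are not read as a result.

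Genes outside the subunits that assemble, regulate or drive the proteasome were taken from lists of known function. Nfe2l1, the factor that drives proteasome genes, had 163, 174, 167 and 166 FPKM in BKO cold libraries, against 146, 150 and 150 FPKM in BKO fed libraries, and 167, 173, 165 and 154 FPKM in FF cold, against 132, 133 and 145 FPKM in FF fed libraries. No library overlapped in either genotype. It rose by 0.27 ± 0.06 in FF mice (adjusted p = 0.00437, limma) and differed by 0.17 ± 0.06 in BKO mice (adjusted p = 0.0692, limma), and the difference of the responses did not pass. In cold plus fasting it rose by 0.25 ± 0.07 in FF mice (adjusted p = 0.0121, limma) and differed by 0.11 ± 0.07 in BKO mice. Fasting left it at -0.06 ± 0.07 in both. The related factor Nfe2l2 rose in the cold in FF mice, by 0.53 ± 0.15 (adjusted p = 0.014, limma), and differed by 0.23 ± 0.15 in BKO mice. Ddi2, the protease that releases Nfe2l1 from the endoplasmic reticulum, rose in fasting, by 0.44 ± 0.13 in BKO and 0.40 ± 0.13 in FF mice (adjusted p = 0.0167 and 0.0205, limma).

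Of 10 tested regulators of proteasome transcription, 1 rose in BKO mice (Maff, by 1.81 ± 0.38, adjusted p = 0.00206, limma) and 4 rose and 1 fell in FF mice in the cold, and 2 and 4 rose in fasting with 0 lower. Among all genes 9.72% rose in BKO and 13.3% rose and 10.3% fell in FF mice in the cold, and 12.9% and 18.1% rose in fasting. Hmox1, a heme oxygenase and a target of Nfe2l2, rose in fasting, to 367, 100 and 72.6 FPKM in BKO fasted libraries, against 6.12, 4.60 and 8.72 FPKM in BKO fed libraries, and to 88.6, 215 and 385 FPKM in FF fasted, against 4.16, 3.88 and 5.55 FPKM in FF fed libraries. Its differences were 4.26 ± 0.44 in BKO and 5.15 ± 0.44 in FF mice (adjusted p = 2.46e-07 and 1.28e-08, limma). Of 15 tested assembly and regulatory factors, 3 rose in BKO and 3 rose and 1 fell in FF mice in fasting, and in the cold 1 fell in BKO (Psmg4) and 1 rose in FF mice (Psmg1). The 3 of 15 that rose in fasting stand beside 12.9% of all genes in BKO and 18.1% in FF mice. In FF mice 19.4% of all genes fell in fasting. In the cold 6.5% of all genes fell in BKO and 13.3% rose in FF mice. Pomp, the chaperone of core assembly, did not pass in cold or fasting in either genotype, at means between 50.7 FPKM in BKO fasted and 68.1 FPKM in BKO cold plus fasting mice. Psmf1, an inhibitor of the core particle, rose in fasting by 0.39 ± 0.10 in BKO and 0.59 ± 0.10 in FF mice (adjusted p = 0.00518 and 8.28e-05, limma). Zfand5, which binds the proteasome and ubiquitin, rose by 0.85 ± 0.15 in FF mice (adjusted p = 0.000156, limma) and differed by 0.41 ± 0.15 in BKO mice (adjusted p = 0.0515, limma).

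Of 4 tested ubiquitin ligases known from muscle atrophy, 3 rose in BKO and 2 in FF mice in fasting, where 12.9% and 18.1% of all genes rose. Fbxo21 averaged 144 ± 4.70 FPKM in BKO fasted and 47.4 ± 8.96 FPKM in BKO fed libraries, and 157 ± 29.9 FPKM in FF fasted and 56.8 ± 4.08 FPKM in FF fed libraries (SD, n = 3 each). It rose by 1.6 ± 0.14 in BKO and 1.43 ± 0.14 in FF mice (adjusted p = 4.05e-08 and 1.13e-07, limma), and fell in the cold, by 0.65 ± 0.13 and 0.87 ± 0.13 (adjusted p = 0.00171 and 7.39e-05, limma). Trim63 had 11.9, 2.71 and 4.00 FPKM in BKO fasted and 14.2, 11.6 and 57.8 FPKM in FF fasted libraries, and was at 0.18 FPKM or less in all fed libraries. It rose by 2.46 ± 0.39 and 4.41 ± 0.39 (adjusted p = 5.96e-05 and 2.09e-08, limma). Trim63 is also a skeletal muscle gene, and the muscle markers summed to 44.4 to 158 FPKM in BKO fasted and 52.1 to 142 FPKM in BKO fed libraries, and to 17.7 to 77.4 FPKM in FF fasted and 35.9 to 88.6 FPKM in FF fed libraries. Of 9 tested genes of ubiquitin itself, its activating enzymes and the p97 unfoldase, 1 rose and 1 fell in each genotype in fasting and 0 passed in either genotype in the cold. Among all genes 14.6% fell in BKO and 19.4% in FF mice in fasting, and 16.2% and 23.6% passed in the cold.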

How the data were processed

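RNA of brown adipose tissue was measured in 26 libraries. The authors deposited 1 table of FPKM values per gene and library, and STAR, Cufflinks and Cuffdiff with the mm10 genome are named per the submitters' processing notes. The annotation release is not given in the sources used here, the read depth behind the deposited FPKM values is unknown, and no counts were used, so no counting error can be given. GENCODE M21 held 48051 of the 48432 gene IDs of the table and gave coordinates on GRCm38.

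Values were analysed as log2(FPKM + 1), with a pseudocount of 1, so fold changes of low genes are understated. A gene was tested where 3 or more libraries reached 1 FPKM, apart from 33 genes left out as failed estimates. Those were listed at exactly 0 in at least 1 library, while every library above 0 had 100 FPKM or more. This left 12702 genes. Limma 3.58.1 in R 4.3.3 fitted the 8 group means to all 26 libraries with a trended prior, and contrasts were two-sided, with Benjamini-Hochberg adjustment over all genes and a threshold of 0.05. The fit was tested on simulated data. The titles number the animals, and p-values measure the spread between these libraries. Copies were searched with blastn 2.17.0. Of 4 promoter motifs searched, 1, which was less frequent in member windows than in all windows, is not reported here.

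The named genes are the catalytic, immunoproteasome and activator genes, members that passed (up to 8 per comparison by adjusted p), and members at the ends of a range, with Nfe2l1, Ddi2, Pomp, Klf15 and up to 5 passing genes of each related list. Some further members are named because their calls had a single-library limit, and these were chosen after their values were seen. Calls with such a limit are not all named in the comparison of cold plus fasting with fasted mice. The members and lists were chosen with earlier results of these data known. Alternatives were testing every gene regardless of its level, a minimum mean of 5 FPKM, a smaller pseudocount (0.1), quantile normalization, array weights, the library series as a covariate, the second library series alone, and each library left out in turn.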

Additional observations from a re-analysis of the deposited data

Results flagged for a closer look

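In groups of 4 libraries, 84 sets of values of a member were examined for 1 library far from the other 3, and 5 were found. Chance alone would give about 1 in 20 groups. Psmb4 had 99.5 FPKM in BKO cold replicate 4, above the other BKO cold libraries at 92.9 to 94.0 FPKM. Psma2 had 101 FPKM in BKO cold replicate 3, below the other BKO cold libraries at 115 to 118 FPKM. FF cold replicate 3 had 52.5 FPKM of Psmd2, below the other FF cold libraries at 56.3 to 56.6 FPKM, and 39.1 FPKM of Psmc2, below 46.2 to 47.0 FPKM. Psmb7 had 162 FPKM in FF cold replicate 4, above 147 to 149 FPKM in the other FF cold libraries.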

How the results depend on the processing

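Of 96 calls of single members, 43 held under every alternative and with each library left out, 59 held with each library left out, and 0 reversed. Array weights gave 16 members in BKO cold, 21 in FF cold and 18 in FF cold plus fasting against fed mice, 1 for BKO against FF in fed mice, 1 for the genotype average, and 0 for BKO against FF in fasted mice. Quantile normalization gave 11 in FF cold and 6 in BKO cold plus fasting against fed mice, 2 higher and 4 lower, and 1 for the genotype average. Its calls in FF cold plus fasting against fed mice were 2 higher and 7 lower. The library series as a covariate gave 0 for BKO against FF in fasted mice and 5 for FF cold plus fasting against fasted mice. No filter on low values gave 1 for BKO against FF in fasted mice. The second library series alone gave 0 in FF cold and 1 in FF cold plus fasting against fed mice, and no value for comparisons with FF fasted mice or for the genotype average. The causes were not tested.

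With each library left out, members called ranged from 5 to 9 in BKO cold and 5 to 8 in FF cold, 5 to 11 in BKO and 4 to 7 in FF cold plus fasting, and 9 to 15 in BKO and 10 to 20 in FF fasted mice, each against fed mice. Against fasted mice, cold plus fasting gave 14 to 20 in BKO and 14 to 23 in FF mice. BKO against FF gave 0 to 3 in fasted mice and 0 to 1 on average. The other 8 counts stayed at 0. No paired analysis was possible because the titles number the animals, no animal number is shared between groups, and the replicate numbers used here only name libraries in order. Groups of 3 or 4 libraries of unknown depth limit what can be seen, and genotype and library series cannot be told apart in fasted mice.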
